A study of Mus musculus with 3 samples.

Results

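Cyclins, cyclin-dependent kinases (CDKs) and their inhibitors were described in mouse chondrocytes, the cells that make cartilage, with and without a recombinase directed at Kdm6b. Members were taken by gene symbol: cyclins of the A, B, D and E types, numbered CDKs, inhibitors of the Cdkn1 and Cdkn2 families, and Cdkn3. The rule found 36 of the 44788 genes in the count table, made up of 10 cyclin genes, 18 CDK genes, 7 inhibitor genes and Cdkn3. Of these, 34 passed the filter on low counts and were tested, and 2 (Ccna1 and Ccnb3) did not.

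The cells were primary chondrocytes of C57BL/6 mice, taken from cartilage of the knee. The cKO group (2 libraries) had the genotype Col2a1-CreERT2;Kdm6bf/f, and the control (1 library) had Kdm6bf/f, so the floxed alleles were present in both groups and only the cKO cells carried the recombinase. Cells of either genotype were cultured in F12 with 10% serum and exposed to 1 µM 4-hydroxytamoxifen, which activates CreERT2, for 48 h. The Col2a1 promoter drives the recombinase in cells that express this cartilage collagen, so cells that do not express it keep Kdm6b. A library with the recombinase and unfloxed Kdm6b was not analysed here. Kdm6b encodes a demethylase that removes the repressive methyl marks of Polycomb from histone H3. The labels do not name the animals or cultures behind the cKO libraries, and p-values reflect no more than the spread of these libraries, which may in part be technical.

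A cell enters the division cycle when D-type cyclins activate Cdk4 and Cdk6, which phosphorylate the retinoblastoma protein and free E2F transcription factors. E-type and A-type cyclins then drive DNA replication with Cdk2, and A-type and B-type cyclins drive mitosis with Cdk1. Inhibitors of the INK4 family bind Cdk4 and Cdk6, and inhibitors of the Cip/Kip family bind many cyclin-CDK complexes. In cartilage, cyclin D1 and inhibitors such as Cdkn1c are among the factors that bear on when growth plate chondrocytes stop dividing and mature. Several numbered CDKs act in transcription or in neurons, outside the division cycle.

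The libraries held between 12489738 and 12636471 counts. Kdm6b itself had 1049 and 948 counts in cKO against 1289 in the control, a difference that did not pass the test (log2 fold change -0.39 ± 0.13 SE, adjusted p = 0.102 in edgeR). The labels do not say which exons are floxed and the counts cover the whole gene, so this is a weak check of the labels. The cKO libraries differed in sex-linked transcripts, so they did not come from the same animal: counts of Xist were 2 and 10081 in cKO replicates 1 and 2 and 1 in the control, and those of the Y-linked genes Ddx3y and Uty were 680, 0 and 732 and 219, 0 and 201. Chondrocyte markers were abundant in all 3 libraries, but 8 of 8 fell in cKO at an adjusted p under 0.05 in edgeR, against 2.01% of all genes. In DESeq2 7 of them fell, against 0.564% of genes. Their summed level was 15290 and 14340 CPM (counts scaled to library size) in cKO against 25720 CPM in the control. Most of this sum was Col2a1 alone, at 156028 and 153390 counts in cKO against 249569 in the control. Leukocyte markers summed to between 7.82 and 13.0 CPM, with Itgam, Cd3e and Tyrobp at 0 counts in every library. Endothelial markers summed to at most 1.29 CPM, and 3 of 6 (Cdh5, Tie1 and Emcn) were at 0. Mural markers summed to 850.3, 1029 and 853 CPM in cKO replicate 1, cKO replicate 2 and the control, fibroblast and synovial markers to 20220, 18300 and 20770 CPM, and osteoblast markers to 51.1, 52.7 and 63.8 CPM. Of the fibroblast markers 1 of 7 rose in edgeR (Thy1), against 3.12% of all genes, and 2 of 7 rose in limma-voom, against 2.99%. Of the osteoblast markers 1 of the 4 tested fell in edgeR (Ibsp), against 2.01% of all genes. Thy1 had 623 and 259 counts in cKO against 139 in the control, and its call is lost in DESeq2 and with robust prior estimation (adjusted p = 0.748 in edgeR). The call of Ibsp is lost in DESeq2 (adjusted p = 0.674). The part of such cells in the results below was not tested, and in bulk RNA fewer cells of a type and less RNA per cell cannot be told apart.

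Cyclin D1 was the member that rose and Cdkn1c the member that fell. Over all 34 tested members, 1 rose and 1 fell at an adjusted p under 0.05 in edgeR's quasi-likelihood test, and 32 did not pass. Among all 15529 genes tested, 3.12% rose and 2.01% fell, so both counts lie near the background. An unadjusted p under 0.05 was reached by 8 members, against 15.5% of all genes. In DESeq2 the member that rose passed and none fell, where 1.54% and 0.564% of genes passed in the respective direction. In limma-voom the same counts as in edgeR were found, with 2.99% and 2.32% of genes. The median log2 fold change was 0.02 over the tested members and -0.00222 over all genes.

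**Figure D1:**
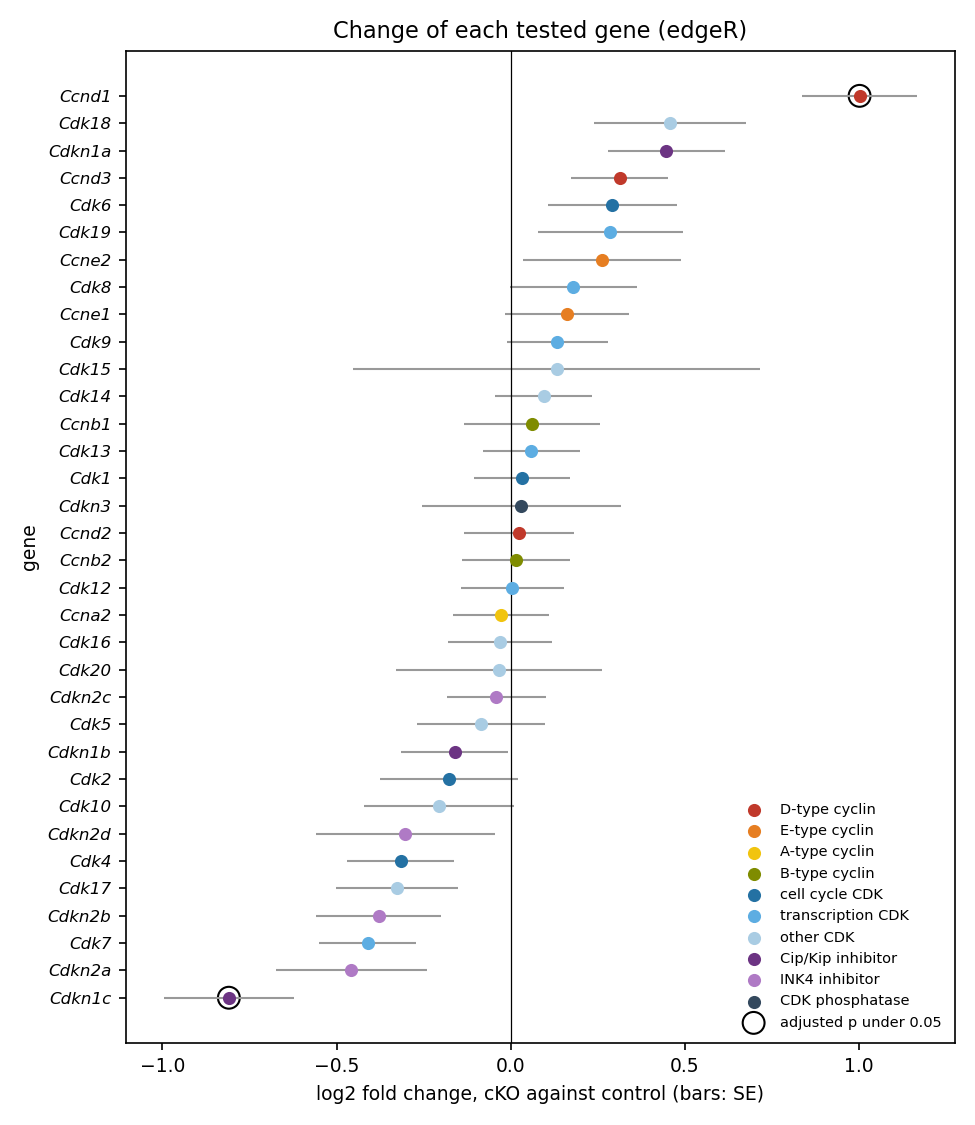
Log2 fold change of cKO against control for the 34 tested genes, sorted, with bars of 1 SE and colours by role. Ccnd1 at 1.00 and Cdkn1c at -0.81 stand apart from the others, which lie between -0.46 and 0.46, and they alone are ringed as past the adjusted p of 0.05.

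Both cKO libraries lay above the control for 11 of the 34 tested members and below it for 11, and the control lay between them for 12. Over all tested genes both lay above the control for 36.6% and below it for 37.4%. At least a 2-fold difference in each cKO library was reached by 0 of the members in either direction, at a mean of at least 5 CPM, against 1.61% of genes higher and 0.494% lower. At this level, 33 members had a standard deviation (SD) of the log2 difference of 0.232 between the cKO libraries, and of 0.370 and 0.327 for cKO replicates 1 and 2 against the control. The same values over all 11339 genes at this level were larger, at 0.331, 0.569 and 0.562.

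**Figure D2:**
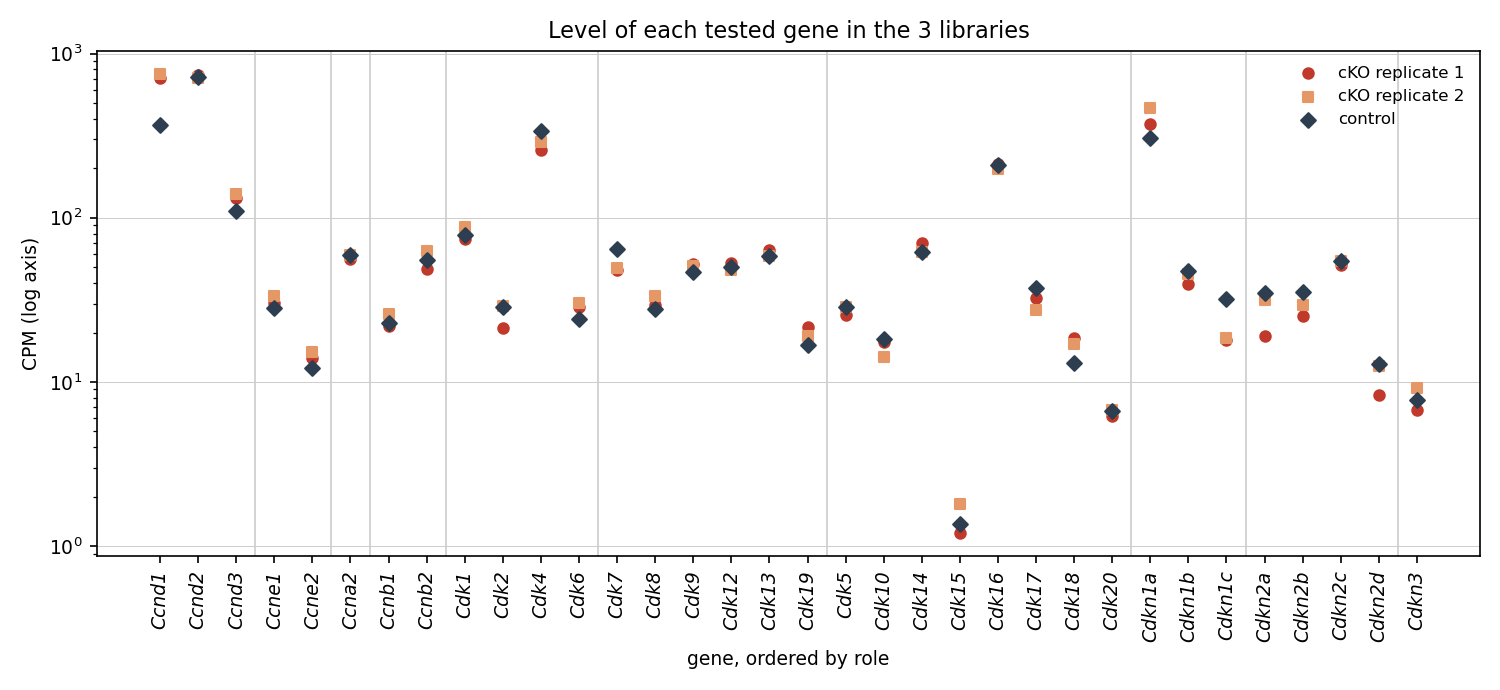
CPM on a log axis of the 34 tested genes in cKO replicate 1, cKO replicate 2 and the control, ordered by role. The 3 libraries lie close together for most genes, and the control stands apart for Ccnd1, at 366.3 CPM below 713.6 and 753.3, and for Cdkn1c, at 31.9 CPM above 17.9 and 18.5.

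The D-type cyclins differed among themselves. Ccnd1 (chromosome 7, 144929931 to 144939925, minus strand, GRCm38), which encodes cyclin D1, had 8888 and 9642 counts in cKO against 4545 in the control. That is 713.6 and 753.3 CPM against 366.3 CPM, with the cKO libraries close together and both far above the control. Its mean was 733.5 ± 28.1 CPM (SD, n = 2), a 2.0-fold rise (log2 1.00 ± 0.17 SE, adjusted p = 0.00022 in edgeR). Against the control, the ratio was 1.95 (95% counting interval 1.88 to 2.02) in cKO replicate 1 and 2.06 (1.99 to 2.13) in cKO replicate 2. The call holds in DESeq2 (adjusted p = 2.52e-07) and limma-voom, but not with prior degrees of freedom of 5 (adjusted p = 0.0544) or 3 (adjusted p = 0.215), or without the filter on low counts (adjusted p = 0.101). Exons of Oraov1, on the opposite strand, overlap the gene, and the counting's use of strand is not given. Oraov1 had 194, 207 and 194 counts in cKO replicate 1, cKO replicate 2 and the control.

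Ccnd2, the gene of cyclin D2, lay at 742.0 and 711.7 CPM in cKO against 714.8 CPM in the control. The control fell between the cKO libraries, and the log2 fold change was 0.02 ± 0.16 (SE, adjusted p = 0.972 in edgeR). Ccnd3, the gene of cyclin D3, lay at 132.2 and 140.3 CPM in cKO against 109.7 CPM in the control. Both cKO libraries were above the control, with a log2 fold change of 0.31 ± 0.14 that did not pass (adjusted p = 0.267 in edgeR). A processed copy, Ccnd3-ps, had 85, 116 and 74 counts, so a part of the reads may be shared between copies.

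Per kilobase of exon, Ccnd1 and Ccnd2 stood at like levels in the control, at 77.8 and 76.0 CPM per kb, and Ccnd3 at 12.5 CPM per kb. In cKO replicate 1 the level of Ccnd1 was 151.5 CPM per kb and in cKO replicate 2 it was 160.0, while Ccnd2 lay at 78.9 and 75.6. The share of Ccnd1 in the summed D-type cyclin level was 46.8% in the control and 61.7% and 63.6% in the cKO libraries. The share of Ccnd2 was 45.7% in the control and 32.1% and 30.1% in cKO. The summed level was 166.3 CPM per kb in the control and 245.5 and 251.6 in cKO. Exon length here is the union of all annotated exons. With counts not divided by length, Ccnd1 had the smaller count in the control, at 30.8% of the D-type total against 60.0% for Ccnd2.

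**Figure D3:**
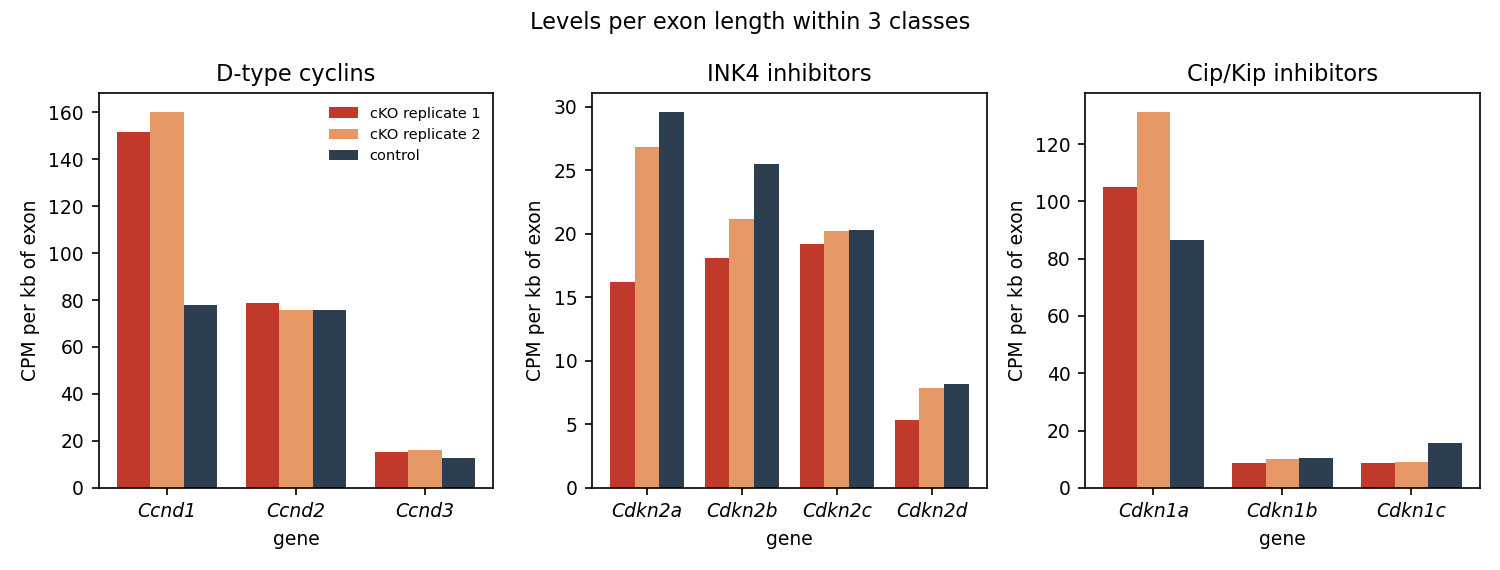
CPM per kb of exon for D-type cyclins, INK4 inhibitors and Cip/Kip inhibitors, with 1 bar per library. Among the D-type cyclins the cKO bars are about 2 times as high as the control for Ccnd1 and level with it for Ccnd2. Every INK4 gene is lower in both cKO bars, cKO replicate 1 being the lowest, but Cdkn2c and Cdkn2d in cKO replicate 2 are nearly level with the control. Cdkn1a is the tallest Cip/Kip gene.

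The E-type cyclins, which open DNA replication, had small differences. Ccne1 lay at 30.1 and 33.2 CPM in cKO against 28.3 CPM in the control (log2 0.16 ± 0.18 SE). Ccne2 lay at 14.1 and 15.2 CPM against 12.2 CPM (log2 0.26 ± 0.23 SE). Both cKO libraries were above the control for each gene, and neither difference passed (adjusted p = 0.755 and 0.662 in edgeR).

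Among kinases of the division cycle, Cdk4 had the highest level per length of all 36 members in the control, at 104.3 CPM per kb, against 1.72 for its partner kinase Cdk6. Cdk4 lay at 256.7 and 287.5 CPM in cKO against 338.8 CPM in the control. Both cKO libraries were below the control, but the log2 fold change of -0.32 ± 0.15 (SE) did not pass (adjusted p = 0.323 in edgeR). Tspan31 overlaps its exons on the opposite strand and lay at 93.6, 88.4 and 88.9 CPM. Cdk6 lay at 28.5 and 30.3 CPM in cKO against 24 CPM in the control, above it in both libraries (log2 0.29 ± 0.19 SE, adjusted p = 0.503 in edgeR). The ratio of Ccnd1 to Cdk4 per length was 0.746 in the control and 1.92 and 1.81 in cKO. Per length, the order of the 2 genes thus differed between the control library and both cKO libraries. Without division by length, Ccnd1 was above Cdk4 in all 3 libraries, at 366.3 against 338.8 CPM in the control.

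Cdk2, the kinase of DNA replication, lay at 21.4 CPM in cKO replicate 1, 29.0 CPM in cKO replicate 2 and 28.5 CPM in the control. The low value was that of cKO replicate 1 alone (log2 -0.18 ± 0.20 SE, adjusted p = 0.762 in edgeR).

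The 5 tested members that peak in G2 and mitosis lay near the control on average, and each was higher in cKO replicate 2 than in cKO replicate 1. Ccna2, the cyclin shared by replication and mitosis, lay at 56.4, 59.7 and 59.2 CPM in cKO replicate 1, cKO replicate 2 and the control. Ccnb1 lay at 22.0, 25.9 and 23.0 CPM, and Ccnb2 at 48.7, 62.4 and 55.0 CPM, in the same order, both encoding B-type cyclins of mitosis. Cdk1, the mitotic kinase, lay at 74.2, 87.4 and 79.0 CPM. Cdkn3, a phosphatase that removes the activating phosphate from Cdk2, lay at 6.74, 9.22 and 7.82 CPM. In each of these members, a group formed after the values were seen, cKO replicate 1 was the lowest, cKO replicate 2 the highest and the control lay between. Their log2 fold changes of cKO against control ranged from -0.03 to 0.06, and 0 of the 5 passed in edgeR, DESeq2 or limma-voom and 0 reached an unadjusted p of 0.05. The ratio of cKO replicate 2 to cKO replicate 1 was 1.28 for Ccnb2 (95% counting interval 1.15 to 1.43) and 1.18 for Cdk1 (1.08 to 1.29), and 1.06 for Ccna2 (0.955 to 1.18). Of 24 replication and mitosis genes outside the rule, 19 were higher in cKO replicate 2 than in cKO replicate 1, against 50% of all genes tested. Aurkb and Birc5 had the same order of the 3 libraries as the 5 members, but others did not. Bub1b, a checkpoint kinase, differed by -0.03 on the log2 scale between cKO replicates 2 and 1, with a 95% counting interval of the ratio from 0.883 to 1.09. For Plk1, a mitotic kinase, both cKO libraries lay above the control (log2 0.37 ± 0.14 SE, adjusted p = 0.169 in edgeR).

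The stretches before the start sites of Ccnb2, Cdk1 and Cdkn3 are shown as those of the 5 mitotic members whose window held both motifs described next. Ccnb1, with 2 CCAAT and no TTTGAA in its window, is not shown. Ccna2 had no window, so its bases were not searched. Capitals mark matches on either strand to CCAAT, the box bound by the factor NF-Y, and to TTTGAA. The latter are letters of the cell cycle genes homology region (CHR) known from mitotic genes. Whether a marked TTTGAA is such a region was not tested. Sequences are from RefSeq (GRCm38.p6), up to 250 bases before the start, without bases that GENCODE M21 annotates as exon. They cover chr9:70421555-70421804 for Ccnb2 (minus strand), chr10:69352939-69353162 for Cdk1 (minus strand) and chr14:46760291-46760540 for Cdkn3 (plus strand).
Ccnb2: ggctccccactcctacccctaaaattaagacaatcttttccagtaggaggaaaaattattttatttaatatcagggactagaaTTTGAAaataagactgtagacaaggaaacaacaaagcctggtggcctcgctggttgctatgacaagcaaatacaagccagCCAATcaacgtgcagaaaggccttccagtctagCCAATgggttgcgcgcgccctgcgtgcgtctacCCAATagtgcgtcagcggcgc
Cdk1: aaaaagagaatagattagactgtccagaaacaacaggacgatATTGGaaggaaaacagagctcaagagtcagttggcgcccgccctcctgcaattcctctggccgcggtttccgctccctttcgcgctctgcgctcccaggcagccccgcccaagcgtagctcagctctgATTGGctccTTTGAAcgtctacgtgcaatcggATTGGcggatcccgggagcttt
Cdkn3: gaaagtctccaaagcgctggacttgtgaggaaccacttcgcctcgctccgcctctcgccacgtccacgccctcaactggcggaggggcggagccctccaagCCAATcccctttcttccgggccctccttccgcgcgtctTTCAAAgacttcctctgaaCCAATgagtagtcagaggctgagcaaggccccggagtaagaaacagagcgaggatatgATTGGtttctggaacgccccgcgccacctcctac

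Each of the 3 stretches held 3 matches to CCAAT and 1 to TTTGAA, and the full window of Cdk1 held another TTTGAA in bases annotated as exon. The 3 were picked for holding both motifs, so their matches cannot be set against a background. Over 32851 windows of 250 bases before RefSeq starts, 10.1% held 2 or more CCAAT matches and 16% held TTTGAA at least once. Of the 33 windows of members, 7 held 2 or more CCAAT and 5 held TTTGAA. Of the 36 members 28 had a window, with 33 starts in all. Ccnd1 and Cdkn1c, like Ccna2, were among the members without a window. TTTGAA occurred before Ccnb2, Cdk1, Cdk16, Cdkn2b and Cdkn3, and 2 or more CCAAT before Ccnb1, Ccnb2, Cdk1, Cdk10, Cdk16, Cdkn1b and Cdkn3. Cdk16 and Cdkn2b, which are not known as mitotic genes, also held a match. Binding of factors was not analysed here, and a match only describes letters.

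The remaining B-type and A-type cyclins were near the limit of detection. Ccna1, a cyclin of the male germ line, had 2, 2 and 4 counts in cKO replicate 1, cKO replicate 2 and the control. Ccnb3, a cyclin of meiosis, had 0, 0 and 1 counts. No fold change is given for either.

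The transcription-linked kinases Cdk7, Cdk8, Cdk9, Cdk12, Cdk13 and Cdk19 did not pass, although Cdk7 came nearest. Cdk7, which activates other CDKs and phosphorylates RNA polymerase II, lay at 47.9 and 49.1 CPM in cKO against 64.5 CPM in the control. The cKO libraries lay close together and both below the control, a difference of -0.41 ± 0.14 on the log2 scale (SE) with an adjusted p = 0.101 in edgeR. For the other 5, the log2 fold changes ran from 0.01 for Cdk12 to 0.29 for Cdk19, the paralogue of the Mediator kinase Cdk8. The control lay between the cKO libraries for Cdk12 and Cdk13, which phosphorylate elongating polymerase, and below both for Cdk8, Cdk9 and Cdk19.

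Of the 8 other numbered CDKs, 0 passed in edgeR, DESeq2 or limma-voom, and 1 reached an unadjusted p of 0.05. That was Cdk18, a kinase of the PCTAIRE group, at 18.6 and 17.0 CPM in cKO against 13.0 CPM in the control (log2 0.46 ± 0.22 SE, adjusted p = 0.312 in edgeR). Its relative Cdk17 lay the other way, at 32.3 and 27.3 CPM against 37.3 CPM (log2 -0.33 ± 0.17 SE, adjusted p = 0.391 in edgeR). Cdk16, also of this group, was the most abundant of the 8 at 213.4, 197.8 and 210.0 CPM, with the control between the cKO libraries. Cdk5, known for its role in neurons, lay at 25.5 and 28.6 CPM against 28.7 CPM. Cdk10, Cdk14, Cdk15 and Cdk20 had log2 fold changes from -0.21 to 0.13. Over all 18 CDK genes, 0 passed in edgeR, DESeq2 or limma-voom and 2 reached an unadjusted p of 0.05, with a median of 0.02.

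Cdkn1c was the inhibitor gene that fell. This imprinted gene (chromosome 7, 143458339 to 143461050, minus strand, GRCm38) encodes a Cip/Kip protein needed for normal maturation of growth plate chondrocytes. It had 223 and 237 counts in cKO against 396 in the control, or 17.9 and 18.5 CPM against 31.9 CPM. Exons of Gm44732, on the opposite strand, overlap 625 of the 2039 exon bases of Cdkn1c. As the counting's use of strand is not given, reads of Gm44732 may be among these counts. The cKO libraries lay close together, at 18.2 ± 0.4 CPM (SD, n = 2), and both lay below the control. The log2 fold change was -0.81 ± 0.19 (SE, adjusted p = 0.0084 in edgeR), with ratios to the control of 0.561 (95% counting interval 0.474 to 0.663) and 0.580 (0.492 to 0.683). The call holds in limma-voom (adjusted p = 0.00474) and is lost in DESeq2 (adjusted p = 0.297), with prior degrees of freedom of 5 (adjusted p = 0.153) or 3 (adjusted p = 0.372) and without the filter on low counts (adjusted p = 0.251). In both cKO libraries the 8 chondrocyte markers were lower too, and their part in this difference was not tested.

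Cdkn1a, the Cip/Kip gene induced by p53, lay on the other side. It had 4650 and 5961 counts in cKO against 3820 in the control, or 373.3, 465.7 and 307.9 CPM. Both cKO libraries were above the control, but they differed from each other by a ratio of 1.25 (95% counting interval 1.20 to 1.30). The log2 fold change of 0.45 ± 0.17 (SE) did not pass (adjusted p = 0.157 in edgeR, 0.452 in DESeq2 and 0.102 in limma-voom). Cdkn1b, which restrains Cdk2 in resting cells, lay at 39.6 and 45.6 CPM against 47.6 CPM (log2 -0.16 ± 0.15 SE, adjusted p = 0.705 in edgeR). Per length, Cdkn1a made up 76.8% of the summed Cip/Kip level in the control and 85.7% and 87.3% in cKO, while Cdkn1c made up 13.9% in the control and 7.17% and 6.05% in cKO. In the control Cdkn1c was above Cdkn1b per length by a ratio of 1.5, and in the cKO libraries the ratio was 1.01 and 0.906.

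The 4 INK4 genes were lower than the control in both cKO libraries, as were 37.4% of all genes tested, but none passed. For Cdkn2c and Cdkn2d, cKO replicate 2 lay close to the control, as given below. In DESeq2 and limma-voom 0 passed as well, and 2 of the 4 reached an unadjusted p of 0.05 in edgeR, against 15.5% of all genes. Counts of Cdkn2a were 237 and 402 in cKO replicates 1 and 2 and 430 in the control, or 19.0, 31.4 and 34.7 CPM. Most of its difference was that of cKO replicate 1: the log2 difference from the control was -0.86 in that library and -0.14 in cKO replicate 2. The fitted log2 fold change was -0.46 ± 0.22 (SE, adjusted p = 0.307 in edgeR). The ratio of cKO replicate 2 to cKO replicate 1 was 1.65 (95% counting interval 1.40 to 1.95), the widest such gap among the tested members.

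Cdkn2b, the neighbour of Cdkn2a on chromosome 4, lay at 25.1 and 29.4 CPM in cKO against 35.5 CPM in the control (log2 -0.38 ± 0.18 SE, adjusted p = 0.303 in edgeR). Cdkn2c lay at 51.6 and 54.4 CPM against 54.5 CPM, and Cdkn2d at 8.35 and 12.4 CPM against 12.8 CPM. For Cdkn2c and Cdkn2d, cKO replicate 2 lay within 0.05 of the control on the log2 scale. Cdkn2d had a log2 fold change of -0.30 ± 0.26 and Cdkn2c of -0.04 ± 0.14 (SE, adjusted p = 0.656 and 0.941 in edgeR). The summed INK4 level was 104.1, 127.6 and 137.4 CPM in cKO replicate 1, cKO replicate 2 and the control.

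Cdkn2a is 1 symbol for a pair of overlapping reading frames with separate starts, the INK4a product (p16) and the ARF product, which acts on p53. Gene-level counts pool both transcripts, so the values above do not show which of them was lower. The Cdkn2a locus is a known target of Polycomb methylation and of Kdm6b, and Polycomb is known to settle at stretches rich in CG. The bases before each start (RefSeq, GRCm38.p6, minus strand) are shown for that reason, with CG in capitals and bases annotated as exon left out. They cover chr4:89282193-89282442 for the INK4a start and chr4:89294654-89294869 for the ARF start.
Cdkn2a INK4a start: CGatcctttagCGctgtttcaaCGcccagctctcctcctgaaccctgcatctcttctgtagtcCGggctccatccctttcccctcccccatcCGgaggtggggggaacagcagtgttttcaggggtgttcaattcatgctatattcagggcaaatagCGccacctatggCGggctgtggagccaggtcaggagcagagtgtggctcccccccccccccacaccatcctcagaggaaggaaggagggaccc
Cdkn2a ARF start: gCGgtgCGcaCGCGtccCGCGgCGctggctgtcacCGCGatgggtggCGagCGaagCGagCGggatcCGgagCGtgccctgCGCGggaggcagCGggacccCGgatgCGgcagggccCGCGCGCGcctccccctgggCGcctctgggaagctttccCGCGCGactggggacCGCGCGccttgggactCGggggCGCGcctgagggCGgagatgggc

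The stretch before the INK4a start held 7 CG in 250 bases, and that before the ARF start held 35 in 216 bases. The median over all RefSeq windows of 250 bases was 6, with quartiles of 2 and 16. Histone methylation was not analysed here.

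The cKO libraries were compared with each other for every tested member, since they are the only replicates. In the test, a gene's own spread has 1 residual degree of freedom, beside an estimated prior of 22.6 drawn from all genes. Cdkn2a, Cdkn2d, Cdkn3, Cdk2 and Ccnb2 were higher in cKO replicate 2 by 0.72, 0.56, 0.44, 0.44 and 0.36 on the log2 scale. Cdk15, at 15 and 23 counts, was higher by 0.52, with a 95% counting interval of the ratio from 0.75 to 3.1. In all, 24 of 34 members (70.6%) were higher in cKO replicate 2, against 50% of all genes tested. The 95% counting interval of the ratio lay wholly above 1 for 12 members (35.3%) and wholly below it for 5 (14.7%), against 15% and 14.5% of all genes. The members higher in cKO replicate 1 were Ccnd2 and CDKs outside the division cycle, with Cdk10 at -0.31 and Cdk17 at -0.24. Such CDKs were not all placed this way: Cdk5, Cdk7, Cdk8, Cdk15 and Cdk20 were higher in cKO replicate 2. The libraries also differ in sex-linked transcripts, as given above, and the part of that difference was not tested.

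**Figure D4:**
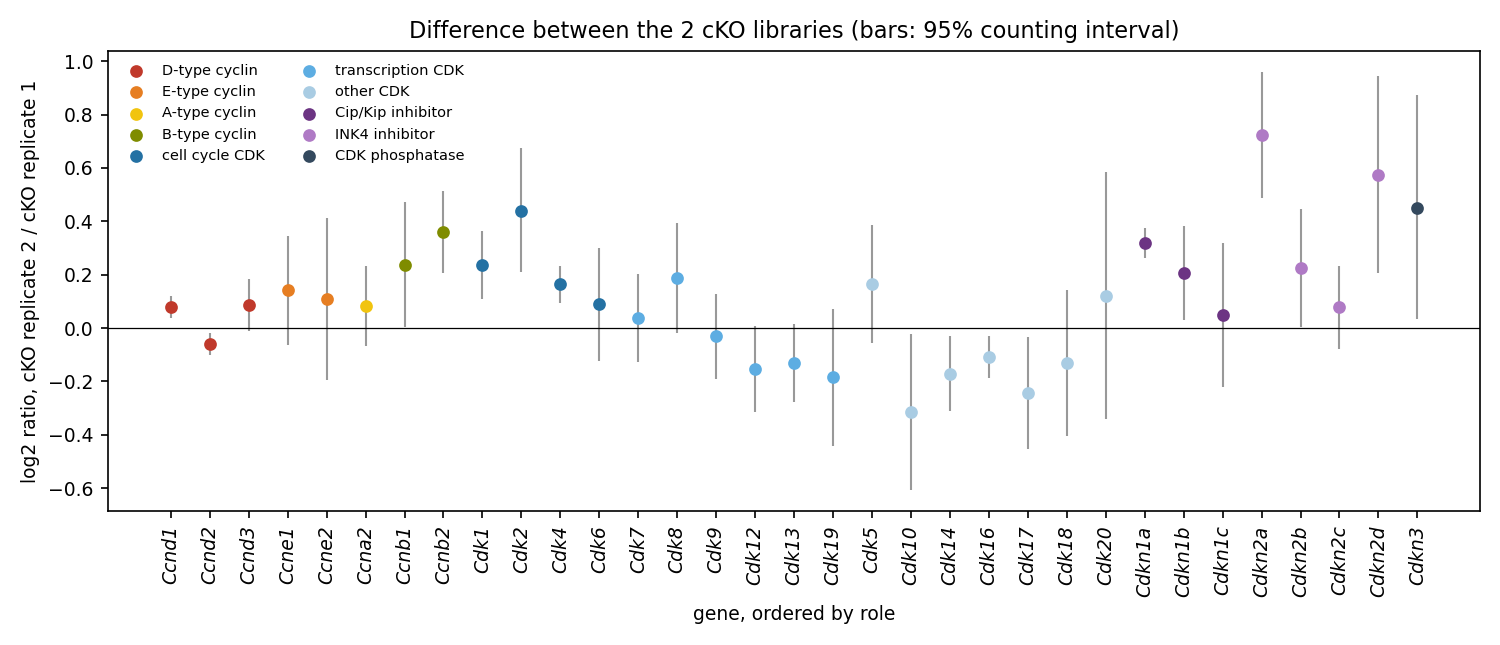
Log2 ratio of cKO replicate 2 to cKO replicate 1 for the tested genes except Cdk15 (15 and 23 counts in cKO), with exact 95% counting intervals. Every INK4 and Cip/Kip gene, each division cycle CDK and both B-type cyclins lie above 0, with Cdkn2a highest at 0.72, and Ccnd2, Cdk10, Cdk14, Cdk16 and Cdk17 have intervals wholly below 0.

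Other genes of the pathway were read from 7 lists in the same fit, for which the background over all genes is the 3.12% higher and 2.01% lower given above. The lists were chosen with results of these data known, so their counts are no independent evidence. In the retinoblastoma and E2F list, 1 of 19 rose and 0 fell, with 2 at an unadjusted p under 0.05 and a median of 0.03. The gene that rose was Mybl2, a partner of the complex that activates mitotic genes, at 12.4 and 13.2 CPM in cKO against 5.97 CPM in the control (log2 1.10 ± 0.27 SE, adjusted p = 0.0118 in edgeR, 0.333 in DESeq2). Of 24 replication and mitosis genes, 2 rose and 0 fell, with 6 at an unadjusted p under 0.05 and a median of 0.15. These were Mcm5, a subunit of the replicative helicase, by 0.54 ± 0.14 and Rrm2, a subunit of ribonucleotide reductase, by 0.53 ± 0.15 (SE, adjusted p = 0.0184 and 0.0422 in edgeR). Both calls are lost in DESeq2 (adjusted p = 0.354 and 0.121), and that of Rrm2 also with RLE size factors (adjusted p = 0.0578 in edgeR). Both cKO libraries lay above the control for 15 of these 24 genes and below it for 2, against 36.6% and 37.4% of all genes. Mki67, the common proliferation marker, lay at 314.0 and 293.2 CPM in cKO against 306.7 CPM in the control, with the control between the cKO libraries.

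Of 21 transcription factors known to act on the cyclin D1 gene, 4 rose and 0 fell, against 3.12% and 2.01% of all genes, with a median of -0.01. Both cKO libraries lay above the control for 7 of the 21 and below it for 9, against 36.6% and 37.4% of all genes. An unadjusted p under 0.05 was reached by 5, the 4 that rose and Ets2. For Ets2 both cKO libraries lay below the control (log2 -0.41 ± 0.13 SE, adjusted p = 0.0705 in edgeR). Fosl1, of the AP-1 family, lay at 38.1 and 49.9 CPM in cKO against 21.8 CPM in the control (log2 1.01 ± 0.19 SE, adjusted p = 0.000903 in edgeR, 0.0243 in DESeq2). The AP-1 genes Junb and Jun rose by 0.62 ± 0.15 and 0.51 ± 0.15, and Myc by 0.57 ± 0.14 (SE, adjusted p = 0.0113, 0.0457 and 0.014 in edgeR). In DESeq2 these last 3 did not pass (adjusted p = 0.245, 0.42 and 0.333 for Junb, Jun and Myc), and Jun is also lost with RLE size factors (adjusted p = 0.0668 in edgeR) and robust prior estimation (adjusted p = 0.0533 in edgeR).

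The other 4 lists held no gene that passed in edgeR, DESeq2 or limma-voom. Among 11 kinases, phosphatases and subunits that act on CDKs, 1 had an unadjusted p under 0.05, Pkmyt1, which phosphorylates and restrains Cdk1 (log2 0.63 ± 0.23 SE, adjusted p = 0.149 in edgeR). In 8 of these 11 genes both cKO libraries were above the control and in 0 both were below, against 36.6% and 37.4% of all genes, and the median was 0.27. Among 11 tested cyclins and CDK activators outside the rule, 1 had an unadjusted p under 0.05, namely the p53 target Ccng1, at 336.6 and 350.3 CPM in cKO against 270.5 CPM in the control (log2 0.34 ± 0.16 SE, adjusted p = 0.274 in edgeR). Among 16 ubiquitin ligase parts that degrade cyclins and inhibitors, 0 had an unadjusted p under 0.05 and the median was 0.01, with Dtl the nearest (log2 0.39 ± 0.21 SE). Among 14 partners of the transcription-linked CDKs, 0 had an unadjusted p under 0.05 and the median was -0.00425, with Ccnh, the cyclin of Cdk7, at -0.24 ± 0.20 (SE).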

How the data were processed

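Libraries were depleted of ribosomal RNA and sequenced on an Ion Proton, per the labels' protocols. The authors deposited whole-number read counts per gene symbol. Aligner, counter, annotation and strand use: not given in the sources used here. The submitters' processing notes list GRCm38 and GRCh37. Of 44788 genes, 15529 passed edgeR's filterByExpr and were fitted with edgeR 4.0.16 in R 4.3.3 (TMM, quasi-likelihood F test, Benjamini-Hochberg, threshold 0.05). With 1 residual degree of freedom (estimated prior 22.6), the single control's spread is taken to equal that of the cKO libraries. SE is the fold change over the root of F. CPM uses TMM-scaled library sizes, and per-library log2 differences a prior count of 2. Counting intervals (exact binomial, 95%) cover counting error only. Exons are from GENCODE M21 (GRCm38), matched by symbol for 36 members. Named were members past the threshold or with an unadjusted p under 0.05, core cyclins, CDKs and inhibitors, the extremes from a mean of 5 CPM, and up to 4 passing genes (otherwise the nearest 1) per list. Others were named after their values were seen. Members and lists were chosen with earlier results of these data known. DESeq2 1.42.0, limma-voom (limma 3.58.1), RLE factors, no filter, fixed or robust priors and leaving out a cKO library were alternatives. The fits were tested on simulated data.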

Additional observations from a re-analysis of the deposited data

How the results depend on the processing

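The 22 named members gave 154 values under alternatives with a test. Of these, 147 kept the direction and side of the threshold of the reported value and 7 lost the call. All 7 losses belong to Ccnd1 and Cdkn1c, the only members with a call to lose. For the other members, a kept value means only that a difference that did not pass again did not pass. Ccnd1 lost its call without the low-count filter and with prior degrees of freedom of 5 or 3. Cdkn1c lost its call under the same settings and in DESeq2. Leaving out 1 cKO library gave 44 values with no test. The sign changed in 7 of these, 1 each for Ccna2, Ccnb1, Ccnb2, Ccnd2, Cdk1, Cdk2 and Cdkn3, none of which passed the test. The number of members that rose was 1 in DESeq2, limma-voom and edgeR with RLE size factors or robust prior estimation (the last chosen after seeing the data). It was 0 without the low-count filter and with prior degrees of freedom of 5 or 3. The number that fell was 1 in limma-voom, RLE and robust estimation, and 0 in DESeq2, without the filter and with prior degrees of freedom of 5 or 3. The genes of the pathway lists that rose numbered 7, against 1 in DESeq2 and 0 without the filter and with either prior setting. Leaving out 1 cKO library leaves 1 library against 1 and no test, so no count of calls was made; the members' median log2 fold change was then 0.018 without cKO replicate 1 and -0.066 without cKO replicate 2. Without division by exon length, Ccnd1 made up 44.9%, 46.9% and 30.8% of the D-type total in cKO replicate 1, cKO replicate 2 and the control, Ccnd2 46.7%, 44.3% and 60.0%, and Ccnd3 8.33%, 8.74% and 9.21%. The cause of these changes was not tested, apart from the last, which follows from the lengths. No paired analysis was possible because the control is 1 library without a replicate number.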
